A study of Mus musculus with 90 samples.

Results

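The 6 genes studied belong to the aryl hydrocarbon receptor system and were followed across the livers of 90 mice: the cytochrome P450 genes Cyp1a1, Cyp1a2 and Cyp1b1, the receptor gene Ahr, and the feedback genes Tiparp and Ahrr. The members were taken by symbol, and all 6 were among the 18223 genes of the deposited tables. The series addresses liver toxicity of zileuton, an inhibitor of 5-lipoxygenase that is itself oxidised in part by CYP1A2. The animals were female Diversity Outbred (J:DO) mice, an outbred stock in which every animal carries a different mosaic of founder strain genomes, and they were 6 to 20 weeks old. The vehicle group (41 animals) received sterile distilled water by mouth once a day for 7 days, and the zileuton group (49 animals) received 300 mg/kg of zileuton on the same schedule. Coats were agouti, black and white in 29, 6 and 6 vehicle animals and in 34, 6 and 9 zileuton animals.

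The aryl hydrocarbon receptor, AhR, is a cytosolic protein held by HSP90 and p23, with other chaperone proteins, until a ligand binds it. It then enters the nucleus, pairs with ARNT and binds short DNA elements beside its target genes, of which Cyp1a1 is the textbook example. CYP1A2 is a constitutive enzyme of hepatocytes around the central vein and oxidises aromatic amines, caffeine and several drugs, whereas CYP1A1 is usually scarce in liver until AhR is activated. CYP1B1 acts on hydrocarbons and steroids, mostly outside hepatocytes. TIPARP is a mono-ADP-ribosyltransferase and AHRR a competitor for ARNT. Both are induced by AhR and restrain it.

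On mm10, Cyp1a1 (ENSMUSG00000032315.6) lies on the plus strand of chromosome 9 from 57687928 to 57703824, and Cyp1a2 (ENSMUSG00000032310.4) lies beside it on the minus strand from 57676937 to 57683703. Their RefSeq start sites are 13958 bases apart and the genes point away from each other. Cyp1b1 (ENSMUSG00000024087.4) is on chromosome 17 from 79701537 to 79715061, Tiparp (ENSMUSG00000034640.9) on chromosome 3 from 65528410 to 65555518, Ahr (ENSMUSG00000019256.17) on chromosome 12 from 35497974 to 35535038, and Ahrr (ENSMUSG00000021575.16) on chromosome 13 from 74211118 to 74292331.

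The 250 bases before the start sites of the 3 Cyp1 genes are shown because the genes share a family and differed in level and in which of them were called. They are RefSeq sequence of build GRCm38.p6, written 5′ to 3′ on the gene's strand. Capitals mark GCGTG, the core of the AhR response element, on either strand (CACGC on the strand shown when it lies on the other), and TATAAA on the strand shown.
Cyp1a1 (chr9:57697363-57697612, plus strand): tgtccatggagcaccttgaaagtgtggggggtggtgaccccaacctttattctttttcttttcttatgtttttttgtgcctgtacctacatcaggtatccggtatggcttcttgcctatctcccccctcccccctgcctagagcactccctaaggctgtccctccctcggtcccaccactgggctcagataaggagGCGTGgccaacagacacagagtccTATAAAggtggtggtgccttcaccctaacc
Cyp1a2 (chr9:57683656-57683905, minus strand): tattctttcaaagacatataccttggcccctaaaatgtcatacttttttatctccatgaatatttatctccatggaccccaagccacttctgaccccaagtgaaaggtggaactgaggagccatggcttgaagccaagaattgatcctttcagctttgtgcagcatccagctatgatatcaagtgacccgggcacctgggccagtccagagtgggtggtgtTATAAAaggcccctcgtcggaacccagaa
Cyp1b1 (chr17:79715062-79715311, minus strand): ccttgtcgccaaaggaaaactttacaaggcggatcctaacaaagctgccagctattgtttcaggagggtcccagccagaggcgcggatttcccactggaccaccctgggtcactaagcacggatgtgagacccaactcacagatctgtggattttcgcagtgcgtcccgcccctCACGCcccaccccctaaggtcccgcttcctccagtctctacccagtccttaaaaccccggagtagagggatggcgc
The Cyp1a1 window held 1 GCGTG, which began 54 bases before the start site, and TATAAA 30 bases before it. The Cyp1a2 window held 0 GCGTG and TATAAA 29 bases before the start site. The Cyp1b1 window held 1 GCGTG, 76 bases before the start site, and 0 TATAAA. Of the other members, Tiparp had 1 GCGTG, 170 bases upstream, and Ahrr had 3, at 107, 82 and 27 bases upstream. Ahrr was also the member whose window held the longer form TNGCGTG, which contains the core, with 1 match against 0 in the other 4 windows. Among 32851 promoter windows of the same length, 28.2% held GCGTG, 4.1% held TNGCGTG and 7.59% held TATAAA. A match of letters is a description of the reference genome, and the animals carry other founder haplotypes too. Sequence farther upstream was not read, so a window with 0 matches does not mean that the gene lacks such elements.

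The mRNAs of Cyp1a1 and Cyp1a2 are alike enough that some reads could match both. Their coding parts (1575 and 1542 bases in GENCODE M21) were 76.8% identical over 1538 aligned bases, against 55.6% for Cyp1a1 and Cyp1b1. The longest stretch without a mismatch ran for 137 bases, all coding, at transcript positions 373 to 509 of Cyp1a1 and 291 to 427 of Cyp1a2. It is printed because a read that falls wholly inside it matches both reference transcripts equally.
Cyp1a1 and Cyp1a2 shared stretch: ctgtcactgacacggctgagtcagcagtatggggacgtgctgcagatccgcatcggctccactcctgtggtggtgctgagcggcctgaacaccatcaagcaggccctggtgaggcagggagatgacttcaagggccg
Exact stretches of 30 bases or more shared with Cyp1a2 covered 302 of the 2697 bases of the Cyp1a1 transcript (11.2%), and 0 bases were shared at that length with Cyp1b1. The estimated count of Cyp1a1 was not a whole number in 41 of 41 vehicle and 49 of 49 zileuton libraries, and that of Cyp1a2 in 36 and 44. Fractions were not particular to these genes: Tiparp had them in 18 and 24 libraries and Ahr in 16 and 28, while Cyp1b1 and Ahrr were whole in every library. Because of the shared stretches, the values of Cyp1a1 are uncertain, and how many of its counts came from Cyp1a2 reads was not tested.

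Libraries held 12664579 to 41360187 estimated counts with a median of 25535799, and vehicle and zileuton medians were 26105475 and 25083838. Levels are CPM, that is, counts scaled to library size. Hepatocyte markers were abundant throughout, summing to between 83100 and 199000 CPM. Of 13248 genes tested, 3878 passed a Benjamini-Hochberg adjusted p of 0.05 (29.3%), of which 1914 were higher with zileuton (14.4%) and 1964 lower (14.8%). Of the 7 hepatocyte markers, 6 were lower, 0 higher and 1 not called, with a median log2 fold change of −0.24. Vehicle animals had positions 13 to 20, and zileuton animals 25 to 50, within 8 runs of 50 consecutive animal numbers, so number within a run and exposure cannot be told apart. The labels do not say what the runs were, nor when in the day livers were taken. In bulk liver, fewer cells of a type and less RNA per cell cannot be told apart either.

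Per kilobase of exon, the members spanned a wide range of levels. Cyp1a2 had a median of 311 CPM per kb in vehicle and 631 in zileuton livers. Ahr followed at 6.51 and 7.04, Tiparp at 1.60 and 1.44, Cyp1a1 at 0.441 and 0.568, and Cyp1b1 at 0.115 and 0.125. Ahrr was lowest at 0.00925 and 0.00526 CPM per kb. The order was the same in both groups.

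**Figure D1:**
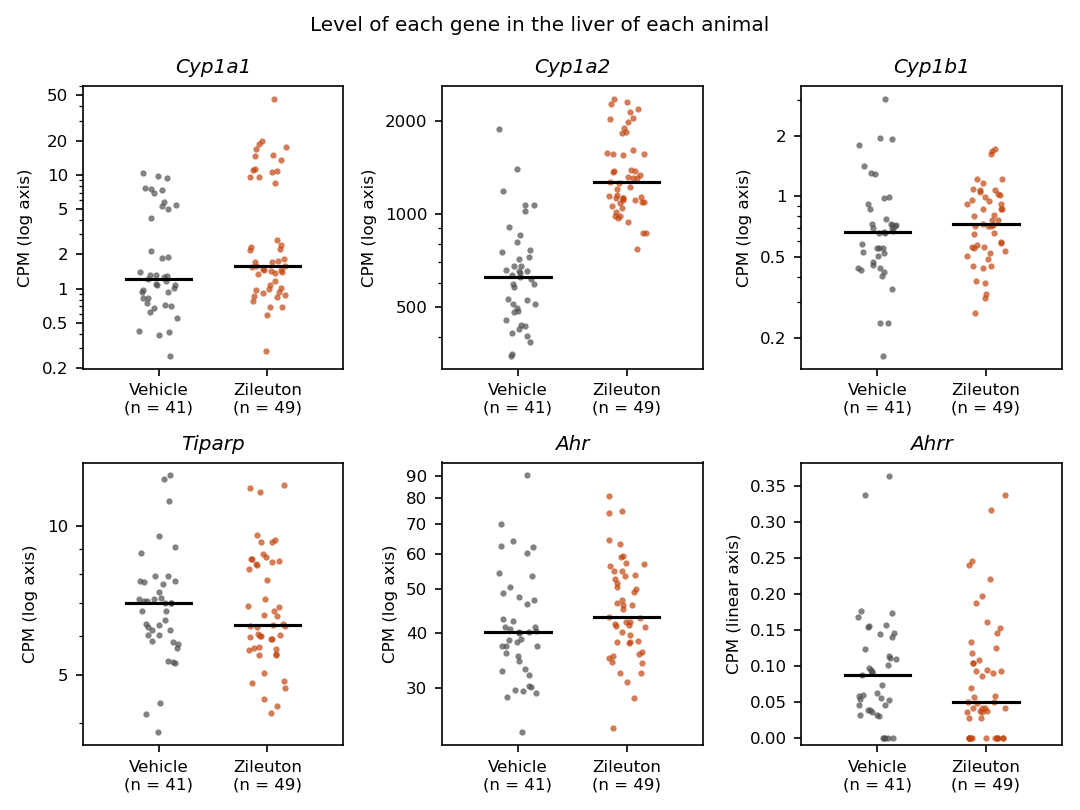
CPM of each of the 6 genes in each animal, by exposure (vehicle, 41 animals; zileuton, 49 animals), with one point per animal and a bar at the group median. Axes are logarithmic except for Ahrr. Cyp1a2 moved as a group from a median of 625 to 1271 CPM, Cyp1a1 shows a lower and an upper band in both groups, and the remaining genes overlap between groups.

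Cyp1a2 was higher with zileuton in nearly the whole population. Vehicle livers ran from 348 CPM through a median of 625 to 1893, and zileuton livers from 774 through 1271 to 2367. All 49 zileuton animals lay above the vehicle median and 32 of 41 vehicle animals lay below the lowest zileuton animal, so the groups overlapped only through the upper vehicle animals. The means were 684 ± 306 (SD, n = 41) and 1399 ± 427 CPM (SD, n = 49), a log2 fold change of 1.03 ± 0.11 (SE) with an adjusted p of 9.37e-13 by the edgeR quasi-likelihood test. Within the 8 runs of animal numbers, mean log2 CPM was higher with zileuton in 8 of 8, by 0.82 to 1.33.

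Cyp1a1 was also called, but its values formed a lower and an upper band in both groups. The lower band had a median of 0.966 CPM in vehicle and 1.39 in zileuton livers, and the upper band 7.11 and 13.4. The differences within bands were not tested. Vehicle livers ran from 0.259 CPM through a median of 1.23 to 10.4, and zileuton livers from 0.287 through 1.58 to 46.5. Of 49 zileuton animals, 34 exceeded the vehicle median and 12 exceeded the highest vehicle animal, while the lower parts of both groups overlapped. The means were 2.78 ± 3.01 (SD, n = 41) and 5.71 ± 8.31 CPM (SD, n = 49), with a log2 fold change of 1.03 ± 0.35 (SE) and an adjusted p of 0.0196 by the edgeR quasi-likelihood test. This call rested on few animals: without the zileuton animal at 46.5 CPM (replicate 2) the log2 fold change was 0.81 with an adjusted p of 0.0624. A permutation test of mean log2 CPM, added after the values were seen, gave a difference of 0.65 and p = 0.0557, or 0.167 adjusted over the 6 genes. The difference within runs was positive in 6 of 8 and ranged from −0.14 to 2.58. Runs were small, and 2.58 came from run 5, whose 2 zileuton animals were both in the upper band.

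**Figure D2:**
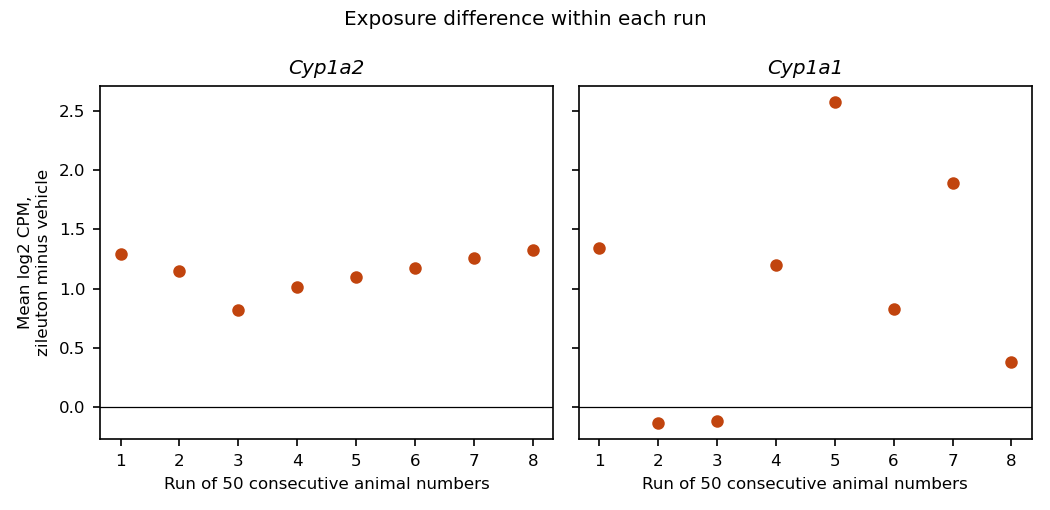
Difference in mean log2 CPM (zileuton minus vehicle) of Cyp1a2 and Cyp1a1 within each of 8 runs of 50 consecutive animal numbers, one point per run. Cyp1a2 differed by 0.82 to 1.33 in all 8 runs, and Cyp1a1 by −0.14 to 2.58. Runs held 3 to 6 vehicle and 2 to 12 zileuton animals.

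The other 3 tested members were not called. Together, 2 of the 5 tested members passed, both higher, beside 29.3% of all genes tested and 14.4% tested and higher. Ahr, the receptor, ran from 23.9 through 40.1 to 90.2 CPM in vehicle and from 24.4 through 43.4 to 81.0 in zileuton livers. The groups overlapped over nearly their whole range, and the log2 fold change was 0.11 ± 0.08 (SE) with an adjusted p of 0.306 by edgeR. Tiparp, usually a sensitive AhR target, ran from 3.83 through 6.97 to 12.7 CPM in vehicle and from 4.18 through 6.29 to 12.1 in zileuton livers. Its log2 fold change was −0.0058 ± 0.079 (SE), adjusted p 0.967 by edgeR. Cyp1b1 ran from 0.163 through 0.669 to 3.04 CPM in vehicle and from 0.264 through 0.728 to 1.71 in zileuton livers, and its log2 fold change was 0.0062 ± 0.15 (SE), adjusted p 0.981 by edgeR. Their groups overlapped, and the sign of both small differences changed when single libraries were left out. That of Tiparp also changed with the scaling.

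Ahrr was close to the limit of detection. Its counts summed to 101 over 41 vehicle and 107 over 49 zileuton libraries, it was at 0 in 5 and 12 of them, and it did not pass the filter on low counts. A count of 0 allowed up to between 0.102 and 0.26 CPM in those libraries, taking 3 counts as the limit and counting error alone. Vehicle livers had a median of 0.0873 CPM and a highest value of 0.364, and zileuton livers 0.0497 and 0.337. Fitted without the filter, its log2 fold change was −0.14 with an adjusted p of 0.777 by edgeR, so a difference was not detectable at this depth.

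The response of Cyp1a2 differed from those of Cyp1b1, Tiparp and Ahr, and that of Cyp1a1 was not told apart from any other tested member. Of 10 pairs among the 5 tested members, 3 differed in their log2 change between exposures by a two-sided permutation test over animals. Cyp1a2 changed by 0.99 more than Cyp1b1, by 1.09 more than Tiparp and by 0.95 more than Ahr, each with p = 1e-05, the smallest that 100000 permutations can give, and 3.33e-05 adjusted over the 10 pairs. Cyp1a1 and Cyp1a2 differed by −0.43, with an adjusted p of 0.282. Against Tiparp, Cyp1a1 differed by 0.66, with an adjusted p of 0.149, against Cyp1b1 by 0.55 (0.268) and against Ahr by 0.52 (0.263).

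Cyp1a1 fell into 2 separated sets of animals in both exposure groups. In vehicle livers, 29 animals lay between 0.259 and 2.15 CPM (median 0.966) and 12 between 4.15 and 10.4 (median 7.11), with an empty interval of 0.92 on the log2 scale between them. In zileuton livers, 34 animals lay between 0.287 and 2.69 CPM (median 1.39) and 15 between 8.47 and 46.5 (median 13.4), with an empty interval of 1.63. The upper set held 29.3% of vehicle and 30.6% of zileuton animals. The sets were drawn at the widest gap of the sorted values, so their difference in Cyp1a1 is their definition and has no test. No other tested member had a gap wider than 0.63, and those widest gaps mostly set apart 1 to 3 animals.

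The upper set was found in every run and coat colour. It held 21 of 63 agouti, 3 of 12 black and 3 of 15 white animals, and between 2 of 17 and 5 of 8 animals of a run. These counts are descriptions, and their differences were not tested.

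In the upper set, Cyp1a1 stayed near a fixed share of Cyp1a2. There it amounted to 0.972% to 1.35% of the Cyp1a2 CPM in vehicle animals (median 1.09%) and to 0.778% to 2.16% in zileuton animals (median 1.02%). In the lower set it amounted to 0.0391% to 0.315% (median 0.151%) and 0.0253% to 0.171% (median 0.0936%). The shares of the 2 sets did not overlap in either exposure group, which follows in part from drawing the sets on Cyp1a1. The share of 2.16% was that of the animal at 46.5 CPM. Cyp1a2 itself overlapped between the sets. It ran from 348 to 1893 CPM (median 625) in the lower and from 413 to 1024 (583) in the upper vehicle set, so the highest vehicle values were in the lower set. In the zileuton sets it ran from 774 to 2367 (median 1318) and from 987 to 2151 (1208).

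**Figure D3:**
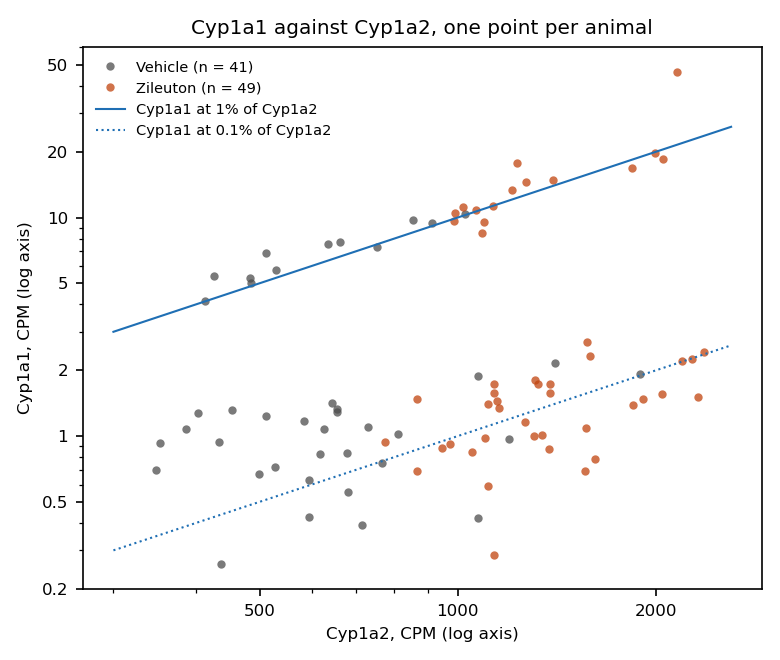
Cyp1a1 against Cyp1a2 (CPM, both axes logarithmic), one point per animal, with lines where Cyp1a1 equals 1% and 0.1% of Cyp1a2. Upper-set animals of both exposures, from 4.15 CPM of Cyp1a1 upward, lie near the 1% line, except the animal at 46.5 CPM, which lies above it at 2.16%. Lower-set animals scatter between 0.259 and 2.69 CPM.

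Correlations of log2 CPM were computed for Cyp1a1 within each set, because a correlation across separated sets reflects the sets. This division was chosen after the values were seen. Of 28 relations among members, 5 passed adjustment over all 28 by permutation. Cyp1a1 and Cyp1a2 rose together in the upper vehicle set (Pearson r = 0.945, p = 1e-05, adjusted p 0.00014; Spearman rho = 0.937, p = 3e-05, adjusted p 0.00056; n = 12). They did so in the upper zileuton set as well (r = 0.844, p = 1e-05, adjusted p 0.00014; rho = 0.886, p = 4e-05, adjusted p 0.00056; n = 15). Without the 2 animals farthest from the median of Cyp1a2, r was 0.916 and 0.83, and with run means removed it was 0.954 and 0.84. In the lower zileuton set r was 0.496 (p = 0.00252, adjusted p 0.0176; rho = 0.535, p = 0.00119, adjusted p 0.00833; n = 34), 0.451 without 2 animals and 0.63 with run means removed. In the lower vehicle set r was 0.322 (permutation p = 0.0871, adjusted p 0.305; rho = 0.216, p = 0.259, adjusted p 0.659; n = 29). Whether these correlations differ between sets or exposures was not tested. The part that divided reads play in them was not tested.

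Among zileuton livers, Cyp1a2 also followed Ahr. The correlation was r = 0.469 (permutation p = 0.00088, adjusted p 0.00821; rho = 0.491, p = 0.00054, adjusted p 0.00504; n = 49), and it was 0.528 without the 2 animals farthest from the Ahr median and 0.624 with run means removed. In vehicle livers it was r = 0.083 (permutation p = 0.607, adjusted p 0.939; rho = 0.0859, p = 0.594, adjusted p 0.929; n = 41), and the difference between exposures was not tested. Cyp1b1 and Tiparp correlated in zileuton livers at r = 0.394 (permutation p = 0.0046, adjusted p 0.0258; rho = 0.289, p = 0.0443, adjusted p 0.177; n = 49). That relation fell to 0.25 without the 2 animals farthest from the Tiparp median, and was 0.38 with run means removed.

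The genes most like each member over the 90 animals were ranked by Pearson r after removal of the exposure means, among 11856 other genes (11857 for Cyp1b1) whose log2 CPM averaged 0 or more. For Cyp1a1, whose r reflects its 2 sets, the most alike were Cd276 (r = 0.63), Bbs4 (0.547) and Dpp8 (0.347), all on chromosome 9. The most opposite, named after their values were seen, were Scamp5 (−0.704), Tmem266 (−0.484) and Scamp2 (−0.469), again all on chromosome 9. Scamp5, a membrane trafficking gene 0.241 Mb from Cyp1a1 between gene midpoints, ranged from 6.03 to 9.11 CPM in the upper and 6.36 to 20.8 in the lower vehicle set. Cd276, an immune checkpoint ligand gene 0.844 Mb away, ranged from 7.8 to 21.8 CPM in the upper and 2.14 to 9.45 in the lower vehicle set. In zileuton livers the upper and lower ranges were 3.65 to 13.8 and 7.27 to 22.8 CPM for Scamp5, and 9.31 to 24.6 and 2.36 to 23.6 for Cd276. These ranges overlap, while those of Cyp1a1 are apart by the definition of the sets.

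**Figure D4:**
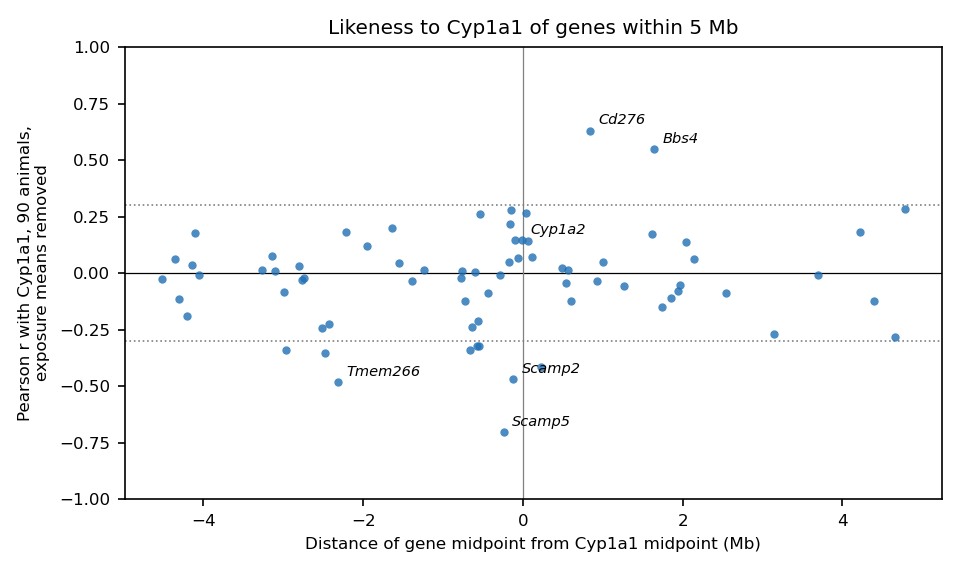
Pearson r with Cyp1a1 (90 animals, exposure means removed) of 72 genes within 5 Mb, against the distance of their midpoint from the Cyp1a1 midpoint in Mb, one point per gene. Dotted lines mark r of 0.3 in either direction. Cd276 (0.63) and Bbs4 (0.547) are highest and Scamp5 (−0.704) lowest, while the adjacent Cyp1a2 is at 0.144.

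Of 72 genes within 5 Mb of Cyp1a1, 11 had an r of at least 0.3 in size (15.3%), against 29 of 11784 elsewhere (0.246%). Cyp1a2, in the same place on the chromosome, had 2 of 72 (2.78%) against 741 of 11784 (6.29%). For Cyp1b1 the shares were 20.5% of 39 near genes and 4.37% elsewhere, and for Ahr 23.1% of 26 and 9.3%. Tiparp had 0 of 21 near genes past that size and 2.81% elsewhere. Neighbouring genes of outbred animals share haplotypes, so they are not independent points, and these shares have no test.

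The genes most like the other members lay on other chromosomes. For Cyp1a2 they were Gstm1, a mu class glutathione transferase (r = 0.64), Cyp2a5, a coumarin hydroxylase (0.565), and Reep6 (0.56). For Cyp1b1 they were Myh11, the smooth muscle myosin heavy chain (0.549), Cd34, a vascular surface protein (0.509), and Cd200 (0.483). For Tiparp they were Ptprj (0.483), Jak2 (0.451) and Pstpip2 (0.433), and for Ahr they were Cdc73 (0.526), Tanc1 (0.522) and Gnaq (0.52). All are descriptions over 90 animals whose libraries share a preparation kit and differ in depth.

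Relations of the members with scores of cell type and time-of-day genes were computed within each exposure group, 96 in all, and 3 passed adjustment by permutation. A clock score was the mean of 11 genes such as Dbp that peak opposite to Bmal1 minus that of 5 genes in phase with it. Cyp1a2 followed it in vehicle (r = 0.548, p = 0.00026, adjusted p 0.025; rho = 0.317, p = 0.0446, adjusted p 0.429; n = 41) and in zileuton livers (r = 0.465, p = 0.00082, adjusted p 0.0298; rho = 0.419, p = 0.0031, adjusted p 0.149; n = 49). Without the 2 animals farthest from the median score, r was 0.348 and 0.418, and with run means removed it was 0.563 and 0.389. Tiparp followed a score of immediate early genes in zileuton livers (r = 0.454, p = 0.00093, adjusted p 0.0298; rho = 0.469, p = 0.00082, adjusted p 0.0787; n = 49), with 0.375 without 2 animals and 0.471 with run means removed.

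The clock genes also moved with exposure. All 5 Bmal1-phase genes were lower and all 11 opposite-phase genes higher with zileuton, and the clock score, scaled over all animals, was −1.32 ± 1.27 (SD, n = 41) in vehicle and 1.11 ± 1.17 (SD, n = 49) in zileuton livers. With that score as a covariate, Cyp1a2 was still called, at a log2 fold change of 0.55 and an adjusted p of 0.00417 by edgeR, and Cyp1a1 was not, at 0.61 and 0.595. The fit with the score called 384 of all 13248 genes, against 3878 without it. With position in the run as a covariate, Cyp1a2 was at 1.05 with an adjusted p of 0.00312 by edgeR. Positions did not overlap between the groups, so that fit assumes a straight line over position and cannot separate it from exposure. Of 8 pericentral markers, which share the zone of Cyp1a2, 2 were higher (Slc1a2 by 0.42 and Cyp2e1 by 0.25) and 0 lower. Among all genes tested, 14.4% were higher and 14.8% lower. The 6 markers not called ran from −0.14 (Glul) to −0.26 (Lgr5), and the list median was −0.19. The summed level of the 8 markers ran from 4770 to 12000 CPM in vehicle and from 5020 to 14500 in zileuton livers. Their part in the Cyp1a2 difference was not tested.

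Known targets of AhR outside the Cyp1 family included Gsta1 and Cyp2a5, which rose with zileuton. Of 18 such genes, 17 passed the filter, of which 10 were higher, 1 lower and 6 not called, beside 14.4% higher and 14.8% lower among all genes tested. The median log2 fold change was 0.35 beside −0.01 over all genes. Gsta1, an alpha class glutathione transferase, rose from 11.9 ± 20.3 (SD, n = 41) to 34 ± 26.2 CPM (SD, n = 49), a log2 fold change of 1.53 ± 0.30 (SE) with an adjusted p of 2.34e-05 by edgeR. Cyp2a5 rose by 1.09 ± 0.20 (adjusted p 6.73e-06 by edgeR). With the clock score as a covariate neither was called, Gsta1 at 0.78 (adjusted p 0.165) and Cyp2a5 at 0.0037 (0.995). That fit called 384 of all 13248 genes, against 3878 without the score. Several of these genes, Gsta1, Cyp2a5 and Nqo1 among them, also answer to CAR or NRF2, so the list is not specific to AhR.

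**Figure D5:**
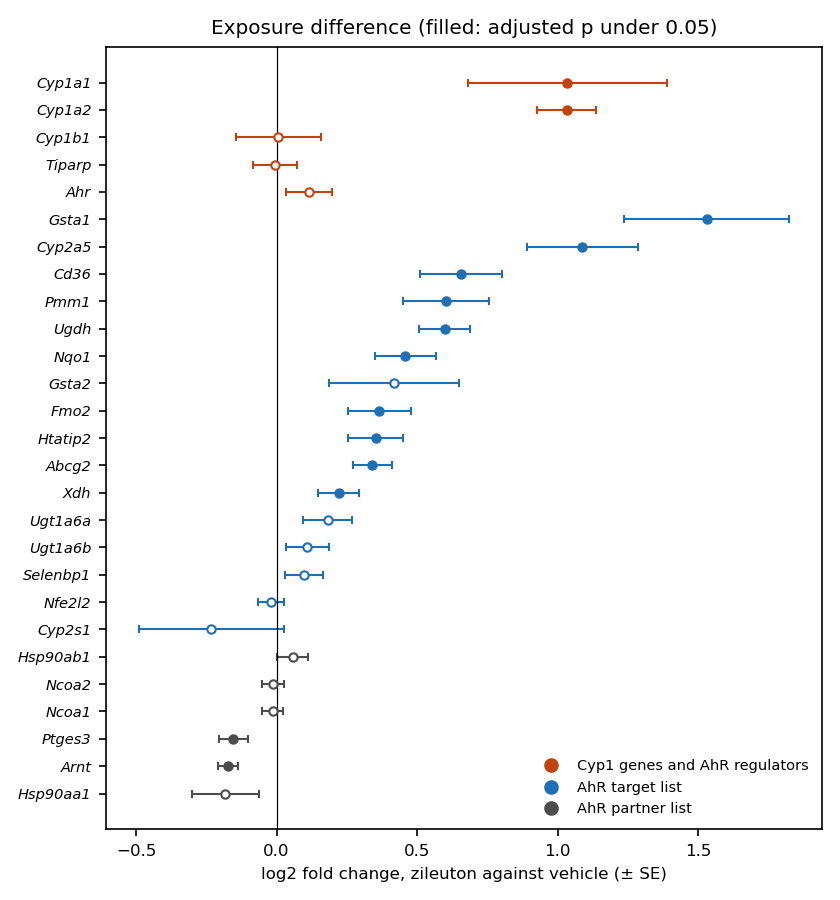
Log2 fold change with its SE, zileuton against vehicle, for the 5 tested Cyp1 genes and AhR regulators, AhR targets outside the family and AhR partners, with filled points for an adjusted p under 0.05 (edgeR). Cyp1a1 and Cyp1a2 both sit at 1.03 with SE of 0.35 and 0.11, and 10 targets are higher.

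Of 8 genes of the receptor's complex, 7 passed the filter, of which 2 were lower and 5 not called (median −0.01), a share near the 29.3% of all genes called. Arnt, the DNA-binding partner of AhR, fell by 0.17 on the log2 scale (adjusted p 9.87e-05 by edgeR), and Ptges3, which encodes the co-chaperone p23, fell by 0.15 (adjusted p 0.0181). With the clock score as a covariate Arnt was at −0.15 (adjusted p 0.0937 by edgeR) and Ptges3 at −0.04 (0.836). Arnt kept its call in the other 19 of 20 settings, and was at −0.35 with position in the run (adjusted p 0.00521 by edgeR). Ptges3 lost its call in 5 of 20 settings. Of 8 factors known to act on basal Cyp1a2, 1 was higher, 2 were lower and 5 were not called, also beside 29.3% of all genes. Cebpb rose by 0.49 (adjusted p 0.00451 by edgeR) and Usf1 fell by 0.22 on the log2 scale (adjusted p 3.57e-05 by edgeR), and neither was called with the clock score (adjusted p 0.0917 and 0.0794) or with position in the run (0.0606 and 0.468). In those 2 fits Cebpb was at 0.54 and 0.99 and Usf1 at −0.19 and −0.14. The same fits called 384 and 217 of all 13248 genes, against 3878 without a covariate. The kynurenine pathway breaks down tryptophan and yields some AhR ligands on the way. Of 9 of its genes, 7 passed the filter, with 0 higher, 2 lower and 5 not called, again near the 29.3% of all genes. Kynu and Haao, whose enzymes act on kynurenine and its products, fell by 0.26 and fell by 0.22 on the log2 scale. With the clock score they were at −0.03 (adjusted p 0.897) and −0.25 (0.113), and with position at −0.16 (0.539) and 0.01 (0.978), so both calls were lost.

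The spread between animals was compared by limma on each animal's distance from its group's median log2 CPM. Of 4 members tested, 0 passed, with a lowest adjusted p of 0.785 and 0 at an unadjusted p under 0.05, beside 4 of 11857 genes (0.0337%). The mean deviation of Cyp1a1 was 1.1 in vehicle and 1.31 in zileuton livers, and that of Cyp1a2 was 0.412 and 0.335. In simulated data the test found 63% of genes whose spread was doubled and 8% of those with 1.5 times the spread, so differences of the latter size would mostly be missed. As a coefficient of variation of CPM, Cyp1a1 stood at 108% and 146%, Cyp1a2 at 44.7% and 30.6%, and Tiparp at 26.8% and 27.7%.

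Coat colour, the other label that differs between animals, gave no call among the 5 tested members by edgeR with exposure as a term. Black against agouti gave 0 members at the adjusted threshold and 2 at an unadjusted p under 0.05, beside 6 of 13248 genes called (0.0453%). Cyp1a2 differed by 0.41 ± 0.14 (SE) and Tiparp by −0.28 ± 0.12, with adjusted p of 0.615 and 0.702 by edgeR. White against agouti gave 0 members, also at an unadjusted p under 0.05, beside 0.00755% of genes. The interaction of exposure with coat colour gave 0 members by either criterion and 0 genes.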

How the data were processed

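RNA from 25 mg of liver of each of 90 animals (41 vehicle, 49 zileuton) was sequenced after the TruSeq RNA kit, 1 library per animal, per the labels' protocols. Partek, STAR and DESeq2 with build mm10 are named in the submitters' processing notes. For the counter, annotation, read length and strand, no name or setting is given in the sources used here. The authors made and deposited an estimated count per gene (77.2% of values were whole within 1e-6, and the rest were fractions, as when reads are divided between features), and a normalized signal, which the authors made by dividing the rounded counts by 1 size factor per library (largest relative deviation 5e-06). Samples were matched to rows by animal number.

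Estimated counts were rounded and tested with edgeR 4.0.16 (R 4.3.3; TMM, filterByExpr, robust quasi-likelihood F test, two-sided, Benjamini-Hochberg), leaving 13248 genes with a common biological coefficient of variation of 32.1%. Members were read from that fit. CPM used the same scaling, and log2 CPM a prior count of 2. Spread was tested with limma 3.58.1 and correlations and pairs with 100000 permutations. Checked on simulated data, the exposure test found 91% of genes changed 1.5-fold and 90% of those changed 2-fold among 13248. DESeq2 1.42.0 served as an alternative. Coordinates and exon lengths came from GENCODE M21, and 5 of the 6 members had a RefSeq promoter. The clock and cell type scores are means of log2 CPM scaled per gene.

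The members, gene lists and tests were chosen with earlier results of these data known. Named were the members, in each list up to 2 called genes per direction with a mean of at least 1 CPM, and the 3 genes most like each member. Some genes chosen by this rule are not reported here. The labels give 1 animal per library, and replicate numbers only name animals.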

Additional observations from a re-analysis of the deposited data

How the results depend on the processing

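Cyp1a2 stayed called in all 21 other settings (log2 fold change 0.55 to 1.15) and in all 90 fits that left out 1 library (1.01 to 1.10). The setting with position in the run cannot separate position from exposure, because positions did not overlap between the groups. Cyp1a1 lost its call in 9 of 21 settings, so that the count of called members was 1 in place of 2: limma-voom (0.69, adjusted p 0.13), limma on the authors' normalized values with a pseudocount of 1 (0.67, 0.131) or 0.1 (0.68, 0.13), plate row and column (0.66, 0.325), clock score (0.61, 0.595), position in the run (1.11, 0.507), without run 1 (0.83, 0.0848) and without run 7 (0.90, 0.0565) of animal numbers. The ninth was the permutation test of mean log2 CPM (0.65, 0.167), added after seeing the data. Leaving out 1 library in turn gave 1 to 2 called members, a Cyp1a1 log2 fold change of 0.81 to 1.14 and 3754 to 4082 called genes. The called genes numbered 384 with the clock score and 217 with the position in the run, against 3878. The cause was not tested.

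Values near 0 changed sign. Tiparp became 0.00018 with DESeq2 size factors, 0.0017 with DESeq2, 0.01 with limma-voom, 0.02 with position, 0.03 without the 9 libraries of lowest total (7 vehicle, 2 zileuton), 0.02 without run 1 and 0.01 without run 2, 6 or 8. Cyp1b1 became −0.07 with the clock score, −0.03 with position, and −0.05, −0.11, −0.03 and −0.01 without run 3, 4, 6 or 7. With libraries left out in turn, Tiparp ran from −0.03 to 0.02 and Cyp1b1 from −0.03 to 0.11. Haao became 0.01 with position. Among the other listed genes, Cyp2a5 came to 0.0037 (adjusted p 0.995) and Gsta1 to 0.78 (0.165) with the clock score and Gsta1 came to 1.18 (0.346) with position. Counts for spread, pairs, correlations and coat colour stayed within 1.5 times in each of their settings. No paired analysis was possible because the labels carry no replicate numbers that link vehicle and zileuton animals. Ahrr and Cyp1b1 are limited by depth.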
